A study of Mus musculus with 13 samples.

Results

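The ATF4 response and the amino acid, folate and polyamine pathways were examined in CD4 single-positive (CD4SP) thymocytes through 34 genes. In all, 22458 genes had at least 1 estimated count over the 13 libraries. The 34 genes were chosen by name for their roles, with earlier results of these data known, and all were found. They comprised 6 ATF4-response factors, 4 genes of serine and asparagine synthesis, 6 of folate metabolism, 3 of proline and ornithine synthesis, 7 transaminases and glutamate enzymes, 4 of the methionine cycle and transsulfuration, and 4 of polyamine synthesis. The study asked how loss of cathepsin L from the thymic stroma, which weakens positive selection, alters CD4 T cells that carry the TCR Lm54, specific for listeriolysin O (LLO). All mice carried the Lm54 TCR transgene on a Rag1-/- background, so that their T cells bear this TCR alone. In CtslΔTEC mice a Foxn1-cre transgene deletes a floxed Ctsl allele in thymic epithelial cells, and the thymocytes themselves are not the target of the deletion. The control mice are called Ctsl+/+ here. Their labels read Ctsl fl/fl (WT). CD69-MHCI+ M2 CD4SP thymocytes, the most mature stage, were sorted from 5 CtslΔTEC mice (mice 1 to 5) and 4 Ctsl+/+ mice (mice 1 to 4) and lysed without culture. Further M2 cells from 2 CtslΔTEC mice (6 and 7) and 2 Ctsl+/+ mice (5 and 6) were cultured for 4 h on plates coated with LLO:I-Ab (1 µg/ml), with anti-CD28 (250 ng/ml) in solution. Each library came from 1 mouse. Mouse numbers follow the sample titles, and the names of the files of all 4 stimulated mice and of unstimulated CtslΔTEC mouse 2 carry other numbers. The labels give no age for single mice, and the methods give an age range for the study's mice in general.

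ATF4 is a transcription factor whose translation rises when eIF2α is phosphorylated under amino acid shortage or other stress, and also downstream of mTORC1. It drives genes of amino acid transport and synthesis, of transfer RNA charging and of the mitochondrial folate pathway, together with feedback regulators such as Trib3 and Chac1. T cells leaving quiescence use serine and folate enzymes to make nucleotides, and polyamines to support growth.

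Estimated counts ranged from 25692380 to 39127833 in unstimulated and from 8085463 to 27184520 in stimulated libraries, with the lowest total in stimulated Ctsl+/+ mouse 5. The names of the deposited files carry 3 dates. The first holds CtslΔTEC mice 1 and 3 and Ctsl+/+ mouse 4, the second the other unstimulated mice, and the third all stimulated mice, so the stimulation cannot be told apart from the date or from 4 h of culture. Y-linked transcripts were present in 5 of 5 unstimulated CtslΔTEC mice and in 1 of 4 unstimulated Ctsl+/+ mice (mouse 3), and in 1 of 2 stimulated mice of each genotype. The 7 CD4 T cell markers were all detected in each group. The summed level of 10 markers of CD4+CD8+ double-positive (DP) thymocytes was higher in CtslΔTEC mice, at 428 to 519 TPM against 156 to 197 in unstimulated cells and at 66.6 to 71.5 against 33.5 to 34.1 in stimulated cells, and none of the 10 was at 0 throughout a group. In stimulated cells this gap lay mostly in Cd8b1, at 34.6 and 34.4 TPM against 9.68 and 9.19, whereas Themis, Rag2 and Ptcra were lower in CtslΔTEC mice without overlap and Dntt and Tmie overlapped. The summed level of 7 markers of the CD8 lineage was also higher in CtslΔTEC mice, at 182 to 226 TPM against 72.5 to 95.3 in unstimulated and at 45.1 to 47.6 against 21.7 to 22.4 in stimulated cells, with Gzmk at 0. This list shares Cd8a and Cd8b1 with the first, and of its other genes Runx3 was lower in stimulated CtslΔTEC mice, at 2.63 and 3.47 TPM against 8.77 and 9.23. The summed levels of 7 CD4 T cell, 6 mature CD4SP and 6 activation markers did not separate the unstimulated genotypes and were higher in stimulated CtslΔTEC mice without overlap, at 5844 to 6195 TPM against 4687 to 5532, 4145 to 4653 against 2881 to 3634, and 9452 to 9802 against 6638 to 8832. The mature CD4SP sum was mostly H2-K1, whereas Ccr7 and Il7r were lower, and of the activation list Il2 was at 4.18 and 7.79 TPM against 71.1 and 72.95. The part of these markers in the differences between genotypes was not tested. In bulk libraries, fewer cells that express a gene and less RNA per cell cannot be told apart. Ctsl itself, which checks nothing in cells outside the deleted epithelium, was at 10.7 to 16.5 TPM in unstimulated CtslΔTEC and 5.41 to 9.03 in Ctsl+/+ mice, and at 3.98 to 4.79 and 2.01 to 3.85 in stimulated mice. TPM is a level scaled to transcript length and library size.

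ATF4 binds composite elements of the form TGATGNAA. This motif was searched on both strands in RefSeq promoters of GRCm38 from 250 bases before to 50 bases after the transcription start. Of 31 genes of the set with a promoter in the table, 5 held a match (16.1%), against 4.51% of all genes. These were Chac1, Got1, Pycr1, Asns and Trib3. The stretches are shown for the 3 matches that lay before the start and outside the gene model used for the counts, those of Chac1, Got1 and Pycr1. The matched letters are in capitals, on the strand of the gene.
Chac1, chr2:119351019-119351086, plus strand: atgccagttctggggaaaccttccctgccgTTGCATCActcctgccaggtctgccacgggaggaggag
Got1, chr19:43524670-43524737, minus strand: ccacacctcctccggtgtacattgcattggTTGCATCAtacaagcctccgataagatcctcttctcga
Pycr1, chr11:120643814-120643881, minus strand: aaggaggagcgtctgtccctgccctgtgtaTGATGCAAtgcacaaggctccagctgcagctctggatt
The match began 193 bases before the start in Chac1, 102 in Got1 and 103 in Pycr1. In Chac1 and Got1 the motif reads as TGATGCAA on the opposite strand. The Asns match, TGATGAAA, began 23 bases before the RefSeq start, inside the gene model used for the counts, and the Trib3 match, TGATGTAA, began 14 bases after the start on the opposite strand. The E-box CACGTG, which Myc family factors bind, was found in 3 of the 31 genes (Aldh18a1, Cbs and Sms; 9.68%) against 8.09% of all genes. A match describes the letters in this window and does not show binding.

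Genes were compared with edgeR's quasi-likelihood test on counts summed to genes, with Benjamini-Hochberg adjustment over all genes tested and a threshold of 0.1. In unstimulated cells, 30 of the 34 genes passed the filter on low counts (Chac1, Asns, Bcat1 and Cth did not), and 10 (33.3%) differed between genotypes, 8 lower and 2 higher in CtslΔTEC mice. Over all 13152 genes tested 14.8% differed, 8.36% lower and 6.42% higher. In stimulated cells all 34 genes were tested. Chac1, Asns and Bcat1, with at most 5 estimated counts in any unstimulated library, passed the filter only through the stimulated ones, Chac1 only through those of Ctsl+/+ mice, where it is high. Of the 34, 14 (41.2%) were lower in CtslΔTEC cells and 0 were higher, against 13.3% that differed over all 14241 genes, 10.6% lower and 2.77% higher. With a filter of at least 10 counts in every library instead, which left out Chac1, Asns and Bcat1, 11 were lower and 1 (Sms) was higher. The median log2 fold change over the tested genes of the set was -0.07 in unstimulated and -0.30 in stimulated cells, beside 0.01 and -0.06 over all genes. Because the set was chosen with earlier results of these data known, its shares and medians beside those of all genes are a description and no independent test. Each call among genes of the set was recomputed under alternative settings. Among them were another scaling, an offset for transcript length and the presence of Y-linked transcripts as a covariate. Others took the date as a factor or left out each mouse in turn. The uncalled genes include some with wide errors, such as Cth and Aldh1l2, and are not shown to be equal.

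**Figure D1:**
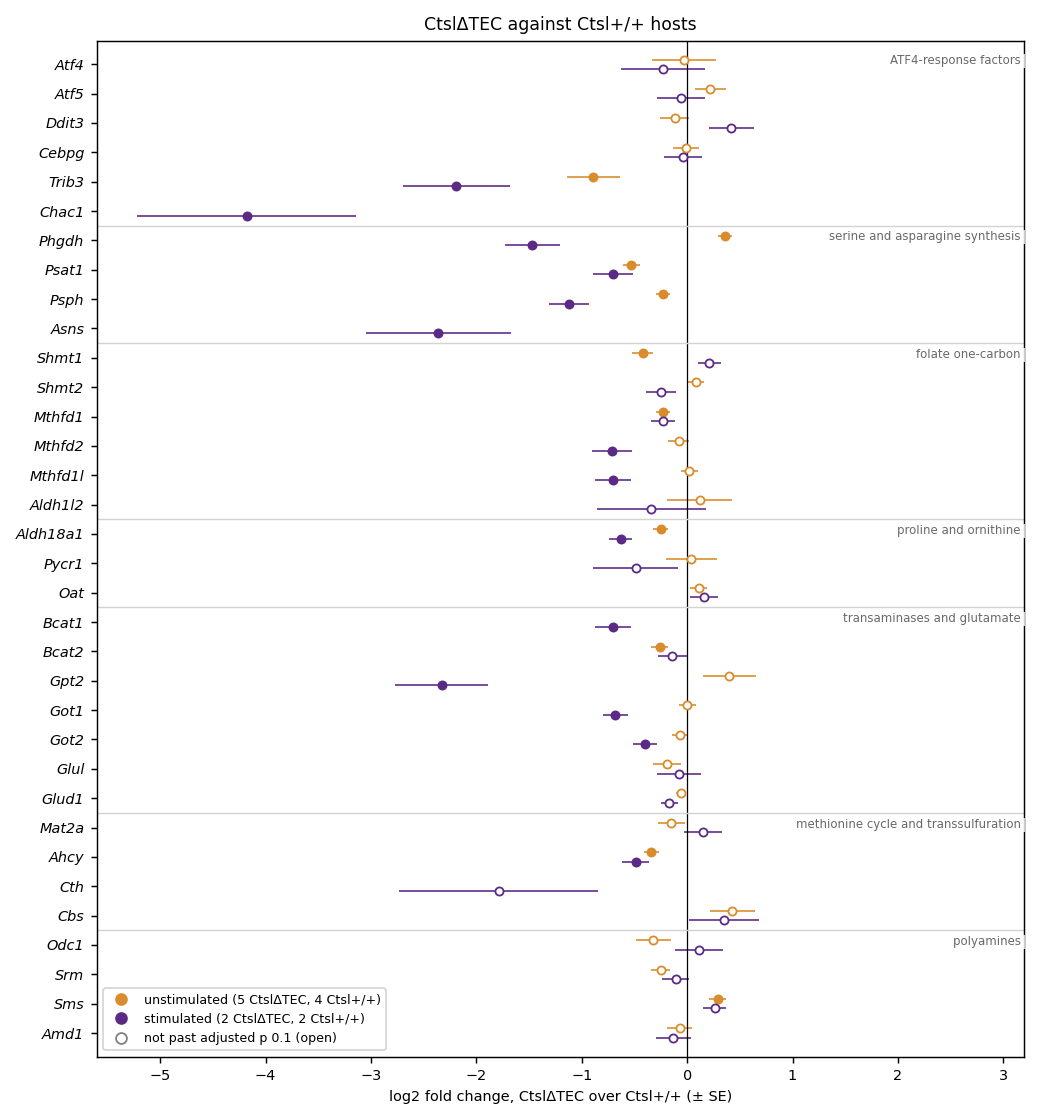
Log2 fold change of CtslΔTEC over Ctsl+/+ mice (x axis, ± SE from edgeR) for each of the 34 genes, grouped by role, in unstimulated (orange, 5 against 4 mice) and stimulated cells (purple, 2 against 2 mice). Filled points passed an adjusted p of 0.1. The point for Chac1, with 2 and 0 counts in CtslΔTEC mice, depends on the fit. All 14 filled purple points lie to the left of 0, among them the 4 serine and asparagine genes, whereas Phgdh in unstimulated cells lies to the right at 0.36.

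Stimulation moved the set in both genotypes. In Ctsl+/+ cells 26 of the 34 genes rose and 4 fell, whereas 67.7% of all genes changed, 32.9% higher and 34.8% lower. In CtslΔTEC cells 20 rose and 5 fell, whereas 71.2% of all genes changed, 32.9% higher and 38.2% lower. With at least 10 counts in every library, a filter that genes near 0 before stimulation cannot pass, 21 rose and 4 fell in Ctsl+/+ and 18 rose and 5 fell in CtslΔTEC cells. The median log2 fold change of the set was 1.55 in Ctsl+/+ and 1.07 in CtslΔTEC cells, beside 0.01 and -0.06 over all genes, and was the same with genes at or under 3 counts set to their bounds. The responses in the 2 genotypes share no mice. The difference between them was tested as the interaction of genotype and stimulation, in which 6 genes of the set differed, 5 with a lower and 1 with a higher response in CtslΔTEC cells, against 6.01% of all genes, 4.88% lower and 1.13% higher.

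**Figure D2:**
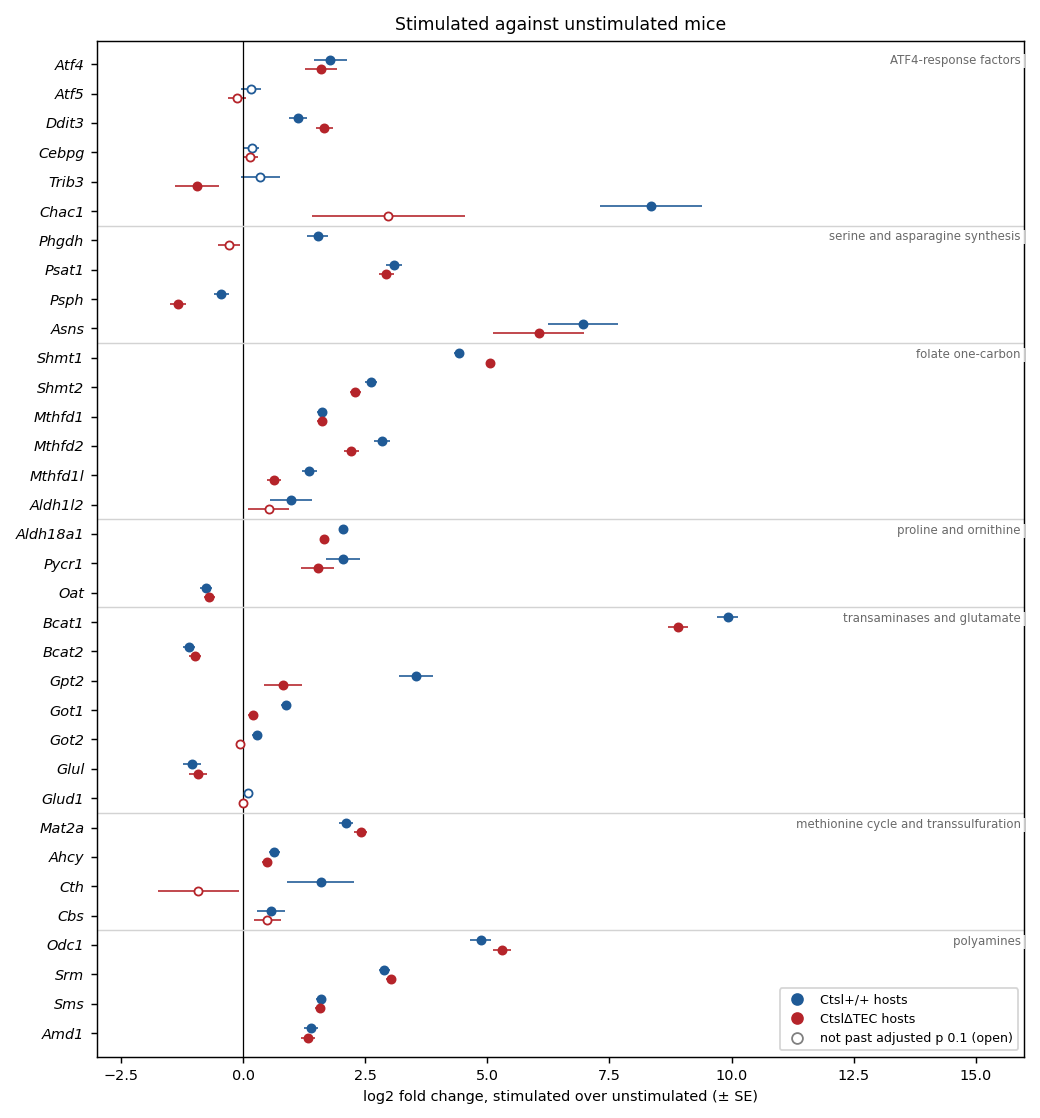
Log2 fold change of stimulated over unstimulated mice (x axis, ± SE from edgeR) in Ctsl+/+ (blue) and CtslΔTEC (red) hosts for each of the 34 genes, grouped by role. Filled points passed an adjusted p of 0.1. Points for Chac1, Asns and Bcat1, near 0 counts before stimulation, depend on the fit and are no bounds. Bcat1, Odc1 and Shmt1 lie far to the right in both colours, and Phgdh is at 1.52 in Ctsl+/+ and at -0.30 in CtslΔTEC cells.

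The clearest departures from a shared response were Phgdh and Gpt2. Phgdh (chromosome 3, 98313170 to 98339990, GRCm38) encodes the dehydrogenase that commits 3-phosphoglycerate to serine synthesis. In unstimulated cells it was at 60.7, 54.1, 63.4, 56.7 and 58.6 TPM in CtslΔTEC mice 1 to 5 and at 43.5, 40.7, 49.5 and 43.7 in Ctsl+/+ mice 1 to 4. Every CtslΔTEC mouse lay above every Ctsl+/+ mouse, with a log2 fold change of 0.36 (SE 0.07, adjusted p = 0.00454, edgeR), a call lost only with the Y-linked covariate among 21 alternatives (adjusted p = 0.426). After stimulation the order was the opposite, with 47.0 and 38.6 TPM in CtslΔTEC mice 6 and 7 and 162 and 74.3 in Ctsl+/+ mice 5 and 6 (log2 fold change -1.47, SE 0.26, adjusted p = 0.00335, edgeR). Phgdh thus rose in Ctsl+/+ cells (1.52, SE 0.22, adjusted p = 1.9e-05, edgeR), with a range of 0.75 to 2.02 when 1 mouse was left out. In CtslΔTEC cells its change of -0.30 (SE 0.22, adjusted p = 0.241) did not pass the test. It passed as a fall in 4 of the alternatives, namely library totals, the Y-linked covariate, and without Ctsl+/+ mouse 5 or 6. The difference between the responses was -1.83 on the log2 scale (SE 0.32, adjusted p = 0.00779, edgeR). Ctsl+/+ mouse 5, the shallowest library, was far above mouse 6, and without it the stimulated difference was -0.72 (adjusted p = 0.00686) and the interaction -1.07 (adjusted p = 0.00757).

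Gpt2 (chromosome 8, 85492576 to 85527560), the mitochondrial alanine aminotransferase, was a low gene with a greater rise in Ctsl+/+ cells. It was at 0.250, 0.279, 0.427, 0.350 and 0.482 TPM in unstimulated CtslΔTEC mice 1 to 5 and at 0.264, 0.302, 0.295 and 0.183 in Ctsl+/+ mice 1 to 4, and these ranges overlapped. In stimulated cells it was at 0.641 and 0.267 TPM in CtslΔTEC and at 2.73 and 2.05 in Ctsl+/+ mice, from 20 and 12 against 62 and 118 estimated counts. The stimulated groups did not overlap (log2 fold change -2.33, SE 0.44, adjusted p = 0.00444, edgeR). Its response was 3.54 (SE 0.35) in Ctsl+/+ and 0.81 (SE 0.39, adjusted p = 0.0785) in CtslΔTEC cells, a difference of -2.73 (SE 0.53, adjusted p = 0.015, edgeR). The CtslΔTEC rise was lost in 10 of 25 alternatives and ranged from 0.08 to 1.32 when 1 mouse was left out. The interaction then ranged from -3.44 to -2.2 and the stimulated difference from -3.04 to -1.8, at -1.88 without Ctsl+/+ mouse 5. The stimulated difference passed the threshold in each of the 26 alternative settings, as did that of Phgdh.

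**Figure D3:**
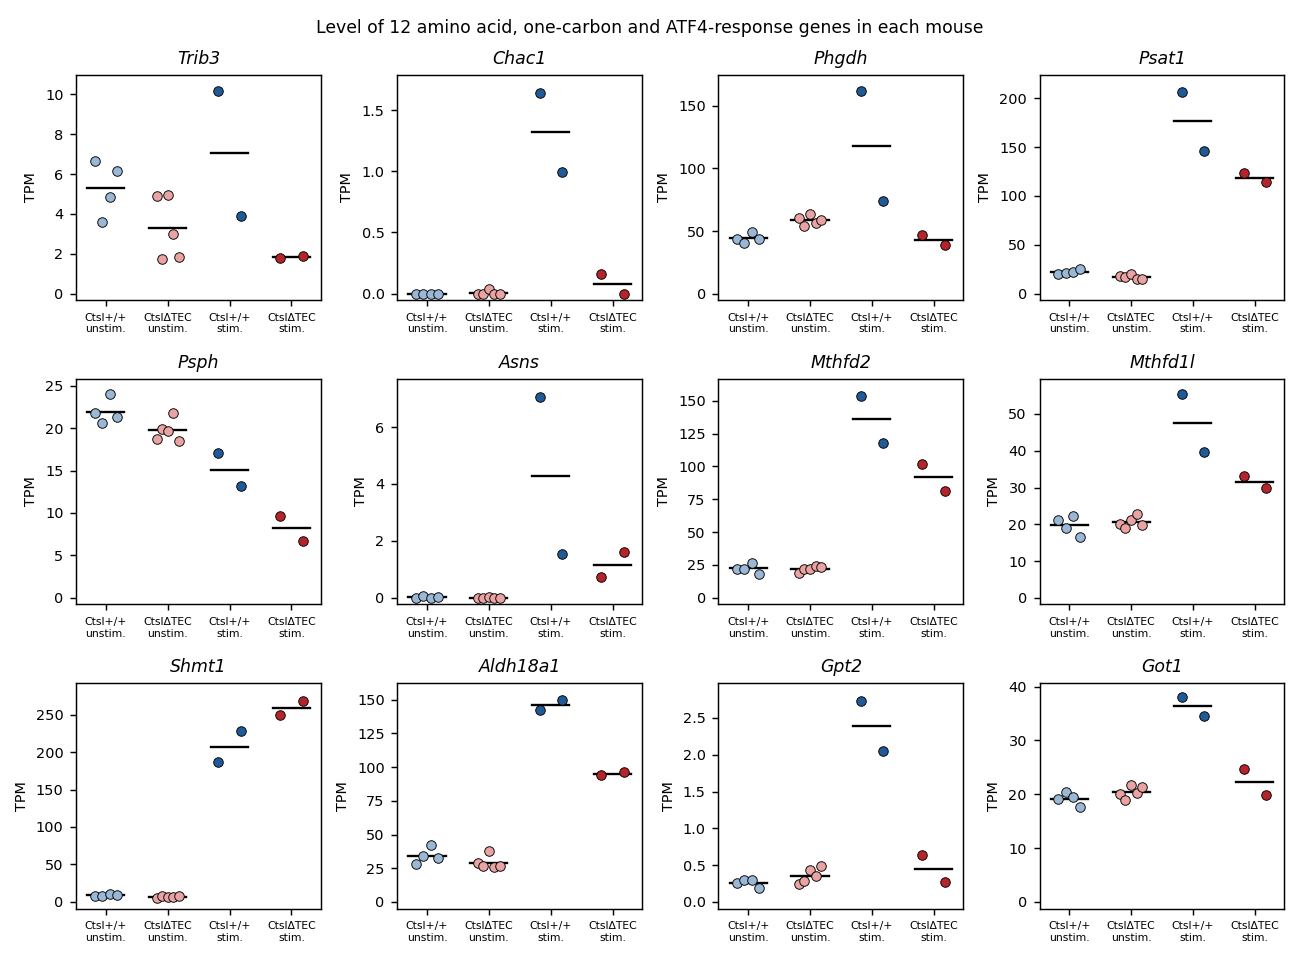
TPM (y axis, linear from 0) of 12 genes of the set in each of the 13 mice, by group (x axis). Points are mice and horizontal lines are group means. The stimulated groups overlap only in Asns, and Shmt1 alone has the CtslΔTEC points above. In each gene shown except Shmt1 and Aldh18a1 the upper stimulated Ctsl+/+ point is mouse 5.

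Among the ATF4-response factors, Atf4 itself rose with stimulation in both genotypes and did not pass the test between them. Its stimulated levels were 291 and 284 TPM in CtslΔTEC and 361 and 317 in Ctsl+/+ mice. All 4 lay above every unstimulated mouse, and the CtslΔTEC mice lay below the Ctsl+/+ mice, a log2 fold change of -0.23 that missed the threshold (SE 0.40, adjusted p = 0.803, edgeR). The groups rose by 1.59 (SE 0.32) and 1.78 (SE 0.34). Because the protein is set largely by translation, the transcript level is only part of its control. Ddit3, the stress-induced factor CHOP, was at 156 and 116 TPM in stimulated CtslΔTEC cells and averaged 104 in Ctsl+/+ cells, without overlap. Its log2 fold change of 0.42 (SE 0.21, adjusted p = 0.252, edgeR) missed the threshold, and passed it with the 4 stimulated libraries alone, with the first date as a factor (adjusted p = 0.0966) and without the libraries of that date (0.0513). With the first date as a factor its interaction passed too (0.58, SE 0.18, adjusted p = 0.0926). Ddit3 rose with stimulation in both genotypes, by 1.66 (SE 0.17) and 1.12 (SE 0.18). The annotation lists another, overlapping Ddit3 entry, and any reads given to that entry are not included in these values. Cebpg and Atf5, a partner and a relative of ATF4, did not pass the threshold in any comparison, although Cebpg did in both responses with an offset for transcript length. Stimulated Cebpg ranged from 21.5 to 22.2 TPM and Atf5 from 3.67 to 4.43.

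Trib3 and Chac1, which are induced by ATF4 and CHOP and act as feedback regulators, had lower levels in stimulated CtslΔTEC than Ctsl+/+ mice, and Chac1 rests on few counts. Trib3 (chromosome 2, 152337422 to 152344032), a pseudokinase, was at 4.88, 1.73, 4.96, 2.97 and 1.81 TPM in unstimulated CtslΔTEC mice 1 to 5 and at 6.64, 3.58, 4.86 and 6.16 in Ctsl+/+ mice 1 to 4. These ranges overlapped in TPM but not in the scaled counts of the test (log2 fold change -0.89, SE 0.25, adjusted p = 0.0441, edgeR), and the call was lost in 4 of 21 alternatives, among them those without Ctsl+/+ mouse 1 or 4. In stimulated cells it was at 1.78 and 1.89 TPM in CtslΔTEC and at 10.2 and 3.92 in Ctsl+/+ mice. The groups did not overlap (log2 fold change -2.19, SE 0.51, adjusted p = 0.015), and without Ctsl+/+ mouse 5 the value was -1.32 (adjusted p = 0.166), and the call was also lost without CtslΔTEC mouse 7 (0.105). Trib3 fell on stimulation in CtslΔTEC cells (-0.95, SE 0.45, adjusted p = 0.0751, lost in 9 of 25 alternatives), and its change in Ctsl+/+ cells was 0.35 (SE 0.39). The interaction missed the threshold (-1.30, SE 0.59, adjusted p = 0.29).

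Chac1 (chromosome 2, 119351229 to 119354381) encodes an enzyme that degrades glutathione. It had 15 and 28 estimated counts in stimulated Ctsl+/+ mice 5 and 6, 2 and 0 in stimulated CtslΔTEC mice 6 and 7, and 0 in every unstimulated mouse except 1 count in CtslΔTEC mouse 3. Against a floor of 3 counts per library it was at least 6.71-fold higher in stimulated Ctsl+/+ than CtslΔTEC cells and rose at least 15.4-fold in Ctsl+/+ cells. It was among the genes called in stimulated cells, having passed the filter on low counts through the Ctsl+/+ mice alone. The call was lost without Ctsl+/+ mouse 5 (adjusted p = 0.143, edgeR) and without CtslΔTEC mouse 7 (0.19), and DESeq2 gave it no adjusted p. The counts in CtslΔTEC cells were within the floor.

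The remaining 3 genes of serine and asparagine synthesis were also lower in stimulated CtslΔTEC cells. Psat1, the aminotransferase that follows Phgdh, was at 17.7, 17.2, 20.4, 14.5 and 15.3 TPM in unstimulated CtslΔTEC mice 1 to 5 and at 19.6, 21.3, 22.0 and 25.4 in Ctsl+/+ mice 1 to 4. CtslΔTEC mouse 3 overlapped the lowest Ctsl+/+ mouse in TPM, whereas the scaled counts did not overlap (log2 fold change -0.53, SE 0.08, adjusted p = 0.00144, edgeR). This call held in each of the 21 alternative settings, including the Y-linked covariate, which left no other unstimulated gene of the set past the threshold. Stimulated levels were 124 and 114 TPM against 206 and 146 (-0.70, SE 0.19, adjusted p = 0.0275), and the difference was -0.26 (adjusted p = 0.381) without Ctsl+/+ mouse 5. The call was also lost without CtslΔTEC mouse 6 (0.148) or 7 (0.111). Psat1 rose strongly in both genotypes, by 2.93 (SE 0.15) in CtslΔTEC and 3.09 (SE 0.16) in Ctsl+/+ cells.

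Psph, the phosphatase of the last step to serine, was at 9.66 and 6.72 TPM in stimulated CtslΔTEC mice 6 and 7 and at 17.1 and 13.2 in Ctsl+/+ mice 5 and 6. The groups did not overlap (log2 fold change -1.12, SE 0.19, adjusted p = 0.00242, edgeR), and the value was -0.74 (adjusted p = 0.00894) without Ctsl+/+ mouse 5. Unlike Psat1, Psph fell on stimulation, by 1.34 (SE 0.17) on the log2 scale in CtslΔTEC and by 0.45 (SE 0.16) in Ctsl+/+ cells, and this difference passed the test (interaction -0.89, SE 0.22, adjusted p = 0.0423). Without Ctsl+/+ mouse 5 the interaction was -0.51 (adjusted p = 0.155), and it was also lost without CtslΔTEC mouse 6 (0.132) or 7 (0.141) and with an offset for transcript length. The fall in Ctsl+/+ cells rested on mouse 6, without which it was -0.10 (adjusted p = 0.554). In unstimulated cells Psph was slightly lower in CtslΔTEC mice (-0.23, SE 0.07, adjusted p = 0.0534, lost in 12 of 21 alternatives), at 18.5 to 21.9 TPM against 20.6 to 24.0.

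Asns (chromosome 6, 7675169 to 7693254), asparagine synthetase, was almost silent before stimulation, with at most 2 estimated counts in any unstimulated mouse. After stimulation it had 9 and 9 counts in CtslΔTEC mice 6 and 7 and 41 and 49 in Ctsl+/+ mice 5 and 6. In TPM the groups overlapped, at 0.715 and 1.59 against 7.05 and 1.53. In scaled counts (CPM) they did not, at 0.794 and 0.550 against 5.29 and 1.87 (log2 fold change -2.36, SE 0.69, adjusted p = 0.0464, edgeR). The call was lost without Ctsl+/+ mouse 5 (-1.48, adjusted p = 0.397), without CtslΔTEC mouse 6 (0.165) or 7 (0.236), and with an offset for transcript length. Against the floor of 3 counts per library Asns rose at least 7.57-fold in CtslΔTEC and at least 36.6-fold in Ctsl+/+ cells. The Ctsl+/+ bound uses the mean of mice 5 and 6, at 5.29 and 1.87 CPM, and would be lower without mouse 5.

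Of the 6 folate genes of the set, 6 rose with stimulation in Ctsl+/+ and 5 in CtslΔTEC cells, whereas 32.9% of all genes rose in each genotype. Of 15 other folate and glycine genes tested, 7 rose in each genotype, and 6 fell in Ctsl+/+ and 8 in CtslΔTEC cells. Shmt1 and Shmt2, the cytosolic and mitochondrial serine hydroxymethyltransferases that pass a carbon from serine to folate, both rose. Shmt1 was at 5.34, 7.59, 7.24, 6.68 and 7.82 TPM in unstimulated CtslΔTEC mice 1 to 5 and at 8.14, 7.36, 11.2 and 8.95 in Ctsl+/+ mice 1 to 4 (log2 fold change -0.42, SE 0.10, adjusted p = 0.0213, edgeR). These overlapped in TPM and not in scaled counts, and the call was lost with the length offset and the Y-linked covariate. In stimulated cells CtslΔTEC mice were above, at 249 and 268 TPM against 187 and 227, but this difference of 0.21 (SE 0.11, adjusted p = 0.287) missed the threshold. The response of Shmt1 was greater in CtslΔTEC cells, at 5.05 (SE 0.09) against 4.42 (SE 0.10), an interaction of 0.62 (SE 0.14, adjusted p = 0.024). The interaction was 0.60 with adjusted p = 0.103 without Ctsl+/+ mouse 5 and 0.55 with adjusted p = 0.101 without CtslΔTEC mouse 7, and the call was also lost with the length offset. Shmt2 reached 293 and 309 TPM in CtslΔTEC and 344 and 299 in Ctsl+/+ cells, which overlapped.

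The mitochondrial enzymes Mthfd2 and Mthfd1l, which carry the folate-bound carbon on to formate, were lower in stimulated CtslΔTEC cells. Mthfd2 was at 102 and 81.6 TPM in stimulated CtslΔTEC and at 154 and 118 in Ctsl+/+ mice (log2 fold change -0.71, SE 0.19, adjusted p = 0.03, edgeR). Mthfd1l was at 33.2 and 29.8 against 55.4 and 39.7 (-0.70, SE 0.17, adjusted p = 0.0219). Neither pair of groups overlapped in stimulated cells, and neither gene differed past the threshold in unstimulated cells (-0.08 and 0.02). Without Ctsl+/+ mouse 5 the differences were -0.35 and -0.34 and missed the threshold (adjusted p = 0.374 and 0.284), as they did without CtslΔTEC mouse 7 (0.176 and 0.135). The interaction passed for Mthfd1l (-0.71, SE 0.21, adjusted p = 0.0804), a call lost in 13 of 25 alternatives, and missed for Mthfd2 (adjusted p = 0.171), although it passed with the first date as a factor (adjusted p = 0.0985). The cytosolic trifunctional enzyme Mthfd1 rose by 1.60 in each genotype. It was lower in unstimulated CtslΔTEC cells (-0.23, SE 0.07, adjusted p = 0.0488, lost in 7 of 21 alternatives), at 26.6 to 33.0 TPM against 31.5 to 35.4. Aldh1l2, a mitochondrial folate dehydrogenase, stayed between 0.466 and 3.21 TPM in all mice and rose past the threshold in Ctsl+/+ cells (0.98, SE 0.43, adjusted p = 0.0629), a call lost without stimulated mouse 5 or unstimulated mouse 4, but not in CtslΔTEC cells.

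Of the 3 proline and ornithine genes, Aldh18a1 was the one called between genotypes. It encodes the enzyme that starts proline synthesis from glutamate. Stimulated levels were 94.1 and 96.2 TPM in CtslΔTEC and 142 and 150 in Ctsl+/+ mice. The mice within each group differed little, and the log2 fold change was -0.63 (SE 0.11, adjusted p = 0.00282, edgeR), with a range of -0.75 to -0.51 over all alternatives, each past the threshold. In unstimulated cells the difference was smaller (-0.25, SE 0.07, adjusted p = 0.0425, lost in 7 of 21 alternatives), at 25.7 to 37.7 against 28.4 to 42.2 TPM. Pycr1, which completes proline synthesis, was at 2.77 and 1.83 TPM in stimulated CtslΔTEC and at 10.9 and 3.74 in Ctsl+/+ mice, but in scaled counts the groups overlapped, at 4.5 and 2.75 against 6.97 and 3.47 CPM, and no difference was called (-0.49, SE 0.40, adjusted p = 0.528), although one was with an offset for transcript length. Pycr1 rose in both genotypes, by 1.52 (SE 0.33) and 2.04 (SE 0.34). Oat, ornithine aminotransferase, fell in both, by 0.70 (SE 0.11) and 0.76 (SE 0.12).

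Bcat1, the cytosolic branched-chain aminotransferase, rose from near silence. It had 1 to 3 estimated counts in unstimulated Ctsl+/+ mice and 2 to 5 in CtslΔTEC mice, and 558 and 1498 in stimulated Ctsl+/+ and 447 and 645 in stimulated CtslΔTEC mice. The rise in Ctsl+/+ cells was at least 660.4-fold against the floor. Stimulated levels were 19.0 and 22.7 TPM in CtslΔTEC and 35.7 and 31.8 in Ctsl+/+ mice, which did not overlap (log2 fold change -0.70, SE 0.17, adjusted p = 0.0177, edgeR). Without Ctsl+/+ mouse 5 the difference was -0.53 (adjusted p = 0.213), and without CtslΔTEC mouse 6 its adjusted p was 0.12. The call was also lost with an offset for transcript length. The mitochondrial form Bcat2 moved the other way, falling by 0.99 (SE 0.12) in CtslΔTEC and by 1.12 (SE 0.12) in Ctsl+/+ cells. In unstimulated cells Bcat2 was lower in CtslΔTEC mice (-0.26, SE 0.08, adjusted p = 0.0686), at 77.4 to 91.4 against 85.96 to 104 TPM, and this call was lost in 11 of 21 alternatives.

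Got1 and Got2, the cytosolic and mitochondrial aspartate aminotransferases, were lower in stimulated CtslΔTEC cells. Got1 was at 24.6 and 19.9 TPM in CtslΔTEC and at 38.1 and 34.6 in Ctsl+/+ mice (log2 fold change -0.68, SE 0.12, adjusted p = 0.00359, edgeR), a call that held in all 26 alternatives. In unstimulated mice of both genotypes Got1 lay between 17.6 and 21.8 TPM. It rose by 0.87 (SE 0.10) in Ctsl+/+ and by 0.20 (SE 0.10, adjusted p = 0.099) in CtslΔTEC cells, where stimulated and unstimulated levels overlapped and the call was lost in 16 of 25 alternatives. The interaction was -0.67 (SE 0.15, adjusted p = 0.0246), and its adjusted p was 0.11 without Ctsl+/+ mouse 5 and 0.104 without CtslΔTEC mouse 7. The interaction was also lost with protein-coding transcripts only. Got2 was at 44.0 and 46.5 against 55.1 and 58.7 TPM (-0.40, SE 0.11, adjusted p = 0.0271), and this was lost without Ctsl+/+ mouse 5 (adjusted p = 0.183) or CtslΔTEC mouse 6 (0.184) and with the 4 stimulated libraries alone. Glul, glutamine synthetase, fell on stimulation in both genotypes, by 0.93 (SE 0.18) and 1.05 (SE 0.18), and Glud1, glutamate dehydrogenase, did not pass the threshold in any comparison. It did in the CtslΔTEC response with library totals or an offset for transcript length, and in the Ctsl+/+ response with thinned libraries.

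In the methionine cycle, Mat2a and Ahcy rose with stimulation in both genotypes. Mat2a makes S-adenosylmethionine and reached 548 and 586 TPM in CtslΔTEC and 456 and 525 in Ctsl+/+ mice. These did not overlap, but the difference of 0.15 (SE 0.18, adjusted p = 0.689, edgeR) missed the threshold. Ahcy clears the S-adenosylhomocysteine left by methylation and was lower in CtslΔTEC cells in both states. In unstimulated cells it was at 30.6, 25.8, 26.7, 28.3 and 32.0 TPM in CtslΔTEC mice 1 to 5 and at 35.5, 34.5, 33.6 and 33.6 in Ctsl+/+ mice 1 to 4. The groups did not overlap (-0.34, SE 0.07, adjusted p = 0.00657), and the call was lost only with the Y-linked covariate among the 21 alternatives. In stimulated cells it was at 39.7 and 40.2 against 53.1 and 48.8 TPM (-0.49, SE 0.13, adjusted p = 0.0236), and without Ctsl+/+ mouse 5 the value was -0.29 (adjusted p = 0.257). This call was lost there, without CtslΔTEC mouse 6 (0.131) and with the 4 stimulated libraries alone. The transsulfuration genes Cth and Cbs were low, at 1.76 TPM or less and 0.324 or less, and neither passed a test between genotypes, Cth in stimulated cells only, where it had 2 and 2 estimated counts in CtslΔTEC and 6 and 10 in Ctsl+/+ mice. Both rose past the threshold in Ctsl+/+ cells (adjusted p = 0.0556 and 0.0951), calls lost in 5 of 22 and 20 of 23 alternatives.

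All 4 polyamine genes rose in both genotypes, whereas 32.9% of all genes rose in each. Odc1, ornithine decarboxylase, which makes putrescine, was at 713 and 714 TPM in stimulated CtslΔTEC and at 657 and 620 in Ctsl+/+ mice, from 16.2 to 37.2 TPM in unstimulated mice. This was the highest level reached by any gene of the set, and its responses were 5.30 (SE 0.19) and 4.86 (SE 0.21). Srm, spermidine synthase, rose by 3.03 (SE 0.10) and 2.89 (SE 0.11), to between 320 and 397 TPM. Sms, spermine synthase, rose by 1.56 and 1.58, and Amd1, which supplies the aminopropyl donor and may share reads with its near-identical copy Amd2, rose by 1.33 and 1.39. No polyamine gene differed past the threshold in stimulated cells or in the interaction, with Sms nearest (0.26, SE 0.11, adjusted p = 0.183). Sms passed as higher in stimulated CtslΔTEC cells without the libraries of the first date (0.31, adjusted p = 0.0971) and with at least 10 counts in every library. In unstimulated cells Sms was higher in CtslΔTEC mice, at 37.3, 38.0, 38.5, 41.2 and 36.0 TPM against 32.9, 33.8, 32.6 and 28.9 (log2 fold change 0.29, SE 0.08, adjusted p = 0.0346, edgeR), without overlap in TPM and with overlap in scaled counts, a call lost in 4 of 21 alternatives. Srm was at -0.25 in the same comparison and missed the threshold (adjusted p = 0.101), but passed it as lower in CtslΔTEC mice with date as a factor (-0.26, adjusted p = 0.055), with DESeq2, and without CtslΔTEC mouse 1 or Ctsl+/+ mouse 1.

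The 14 stimulated differences did not rest equally on all mice. Without Ctsl+/+ mouse 5, 5 calls were made, all among the 14 (Phgdh, Psph, Aldh18a1, Gpt2 and Got1). Without CtslΔTEC mouse 7, 8 were made and without CtslΔTEC mouse 6, 9. Without Ctsl+/+ mouse 6, 15 were made, with Shmt2 added, and the interaction was called for 11 genes, with Trib3, Psat1, Shmt2, Mthfd2 and Aldh18a1 added. With every library thinned to the smallest total, 12 of the 14 were called, without Chac1 and Asns, and with the Y-linked covariate all 14. The share of TPM on retained-intron transcripts over all genes was 7.82% in Ctsl+/+ mouse 5, against 10.5% in mouse 6 and 10.7% and 11.4% in the stimulated CtslΔTEC mice, and its part in these results was not tested. For the unstimulated calls, the Y-linked covariate left 1 of 10 (Psat1), and 5 of 10 were made without Ctsl+/+ mouse 3 (Trib3, Phgdh, Psat1, Shmt1 and Ahcy), the only Ctsl+/+ mouse there with Y-linked transcripts. Sex and genotype thus largely coincide in unstimulated cells.

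Some genes of the set followed the date in the file name within unstimulated cells. Atf4 was at 161 and 156 TPM in CtslΔTEC mice 1 and 3 and at 155 in Ctsl+/+ mouse 4, all of the first date. On the second date it was at 71.5, 77.1 and 69.8 TPM in CtslΔTEC mice 2, 4 and 5 and at 99.6, 92.5 and 77.8 in Ctsl+/+ mice 1 to 3. The dates did not overlap, and within the second date every CtslΔTEC mouse lay below every Ctsl+/+ mouse. Over all 9 mice the genotype difference of Atf4 was -0.03 (SE 0.30, adjusted p = 0.969, edgeR). With date as a factor it was -0.24 (SE 0.08, adjusted p = 0.081) and within the second date alone -0.31 (SE 0.09, adjusted p = 0.0655), whereas with the Y-linked covariate it was 0.53 (SE 0.49, adjusted p = 0.781). Odc1 also separated the dates, at 25.1 to 37.2 TPM on the first and 16.2 to 23.1 on the second. It was lower in CtslΔTEC mice with date as a factor (-0.39, SE 0.10, adjusted p = 0.0273, edgeR) and within the second date (-0.34, SE 0.10, adjusted p = 0.0753). With the Y-linked covariate the value for Odc1 was 0.12 (SE 0.26, adjusted p = 0.933). Ddit3 was higher on the first date and Mthfd2 lower, each without overlap. In all, 4 of the 34 genes (11.8%) separated the dates, against 5.88% of 12983 genes with a mean of at least 10 counts. Of markers of red blood cells, Hba-a1 and Hbb-bs were also higher on the first date without overlap, whereas Hbb-bt and Alas2 overlapped. Hbb-bs was at 140 to 345 TPM against 73.0 to 133. Of the activation markers only Nr4a1 separated the dates, at 53.9 to 124 TPM against 22.5 to 45.4. The part of these markers was not tested. The first date holds only 1 Ctsl+/+ mouse, and genotype was not tested within it.

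**Figure D4:**
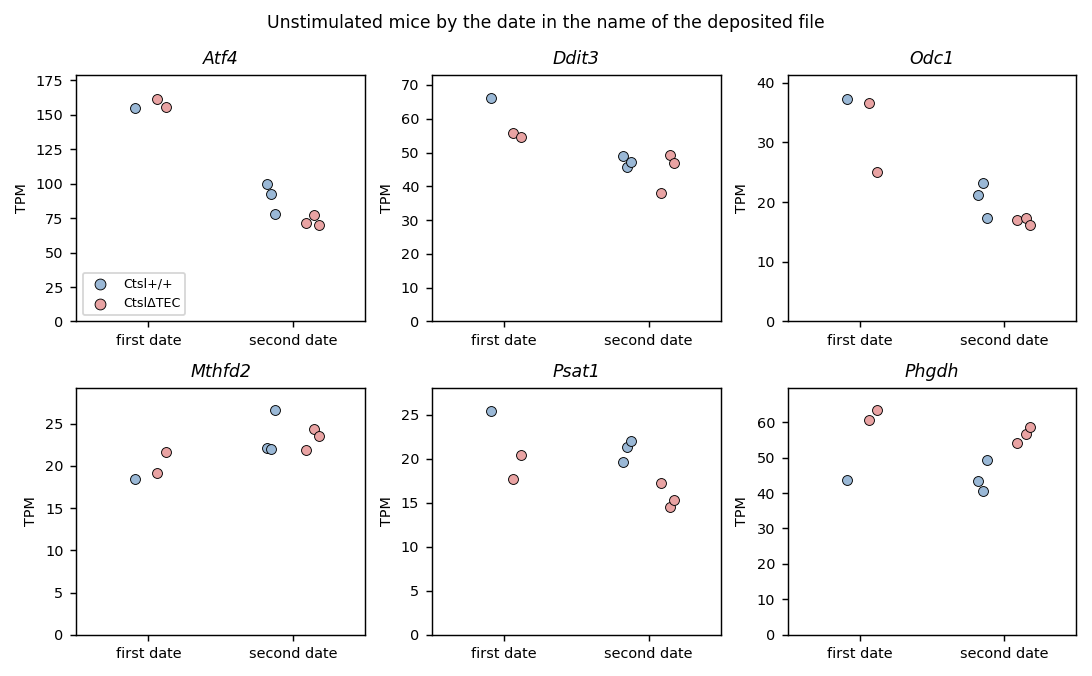
TPM (y axis, from 0) of 6 genes in the 9 unstimulated mice by the date in the name of the deposited file (x axis), with Ctsl+/+ mice in blue and CtslΔTEC mice in red. Atf4, Ddit3 and Odc1 are higher on the first date and Mthfd2 is lower, whereas Psat1 and Phgdh separate by genotype on each date.

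Other genes of these pathways were counted from 4 lists of 80 genes. For them only the main fit is given, without the date, the Y-linked covariate or left-out mice. In stimulated cells 10 of the 73 tested were lower and 1 was higher in CtslΔTEC cells (13.7% lower, beside 10.6% of all genes), with a median log2 fold change of -0.16. In either direction 15.1% differed, near the 13.3% of all genes. Sesn2, a stress-induced inhibitor of mTORC1 signalling, was at 1.87 and 1.71 TPM in CtslΔTEC mice 6 and 7 and at 9.49 and 5.79 in Ctsl+/+ mice 5 and 6 (-2.10, SE 0.25, adjusted p = 2.0e-04, edgeR). Unstimulated mice of both genotypes were at 1.36 to 2.23 TPM, and its interaction was -1.79 (SE 0.29, adjusted p = 0.00558). Atf6, an unfolded protein response factor, was lower in CtslΔTEC cells in both states (-1.18 and -1.22). In unstimulated cells 4 of 71 tested genes were lower and 2 higher, or 8.45% against 14.8% of all genes. Ass1, argininosuccinate synthetase of arginine synthesis, was at 74.8 to 96.4 TPM in CtslΔTEC mice and at 166 to 185 in Ctsl+/+ mice (-1.04, SE 0.07, adjusted p = 4.5e-06), and after stimulation it had fallen to 28.7 to 42.2 TPM in all 4 mice. Impact, a regulator of the eIF2α kinase GCN2, was higher in unstimulated CtslΔTEC cells (0.45, SE 0.09, adjusted p = 0.00851, edgeR). Gcsh of the glycine cleavage system was lower (-0.35, SE 0.10, adjusted p = 0.0555), with overlap in TPM, at 13.4 to 16.5 against 14.9 to 22.2. Gpt, Bckdk, Adi1 and Paox were lower in stimulated CtslΔTEC cells (-1.70, -0.63, -0.94 and -1.13). Aldh1l1 was called too, at 0 and 0.0544 TPM against 0.407 and 0.209.

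In the response to stimulation, the lists were counted separately, and their counts stand beside 32.9% of all genes that rose in each genotype and 34.8% and 38.2% that fell in Ctsl+/+ and CtslΔTEC cells. In the integrated stress response list 15 of 22 tested genes rose and 3 fell in Ctsl+/+ cells, and 13 rose and 4 fell in CtslΔTEC cells. Atf3, which ATF4 induces, rose from at most 0.166 TPM to between 13.5 and 24.5, and Eif2b3, a subunit of the eIF2 exchange factor, rose by 2.42 (SE 0.11) in Ctsl+/+ and 2.43 (SE 0.10) in CtslΔTEC cells. In the amino acid metabolism list 11 of 17 fell and 3 rose in Ctsl+/+ cells, and 12 fell and 4 rose in CtslΔTEC cells. Ivd and Aldh4a1, of leucine and proline breakdown, changed by -1.42 (SE 0.08) and -1.70 (SE 0.15) in CtslΔTEC cells. Of the folate and glycine list, 7 of 15 rose in each genotype, among them Mtrr, which reactivates methionine synthase, and Gcsh, whereas 6 fell in Ctsl+/+ and 8 in CtslΔTEC cells (median log2 fold change -0.17 and -0.30). Of the methionine and polyamine list, 11 of 19 rose and 6 fell in each genotype. Mtap, which salvages methylthioadenosine from polyamine synthesis, rose by 1.98 (SE 0.13) in Ctsl+/+ cells, and Adi1 of the same salvage route fell by 1.77 (SE 0.11) in Ctsl+/+ and by 2.63 (SE 0.11) in CtslΔTEC cells. In the interaction 7 of 73 (9.59%) were lower and 2 higher in CtslΔTEC cells, beside 4.88% and 1.13% of all genes, with Herpud1, an endoplasmic reticulum stress gene, at 79.2 and 79.6 TPM in stimulated CtslΔTEC and 123 and 122 in Ctsl+/+ mice (-0.94, SE 0.13, adjusted p = 0.00382, edgeR).

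Retained-intron transcripts were examined because several of these genes list them. For 25 genes of the set such transcripts took at least 1% of the gene's TPM on average in unstimulated cells. The share was higher in CtslΔTEC mice for 20 of the 25, with a median difference of 1.06 percentage points, and 0 passed an adjusted p of 0.1 (exact permutation test of all divisions of the 9 mice into 5 and 4, two-sided; smallest p = 0.111, smallest adjusted p = 0.992, smallest p this test allows 0.00794). At an unadjusted p under 0.05 the count was also 0. Over all genes the share was 7.54% to 8.22% in CtslΔTEC and 6.49% to 7.55% in Ctsl+/+ mice. The mean share in CtslΔTEC and Ctsl+/+ mice was 85.4% and 85.2% for Cth, 46.4% and 44.6% for Shmt1 and 2.18% and 1.50% for Got2.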

How the data were processed

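RNA of sorted M2 CD4SP thymocytes was sequenced in 13 libraries, 1 per mouse. The authors quantified transcripts with kallisto 0.48 (version from the submitters' processing notes) and deposited, for each transcript, estimated counts, which are not normalized, and TPM, which is scaled to transcript length and library size. The labels call the RNA polyadenylated and the paper describes rRNA depletion. Here both values were summed to genes through GENCODE M21 of GRCm38, which paired 116397 of 117497 transcripts and left at most 0.461% of a library's counts without a gene, and counts were rounded. Gcn1 and Pycr3 were found under their older symbols Gcn1l1 and Pycrl.

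Tests used edgeR 4.0.16 under R 4.3.3 (quasi-likelihood test, TMM, filterByExpr, Benjamini-Hochberg, threshold 0.1). The unstimulated genotypes were compared over 9 libraries, and the other 4 comparisons came from a 4-group model of all 13. SE is the log2 fold change over the square root of F. Methods were tested on simulated data. Alternatives included DESeq2 1.42.0. Nothing states whether mice of a group shared a litter or day, so p-values cover the spread between these mice. A fold against a group whose libraries all hold at most 3 counts is a lower bound, with 3 counts per library as the floor. Such floors cover counting error only. Promoters are RefSeq sequences of GRCm38.p6. Named genes are the 34, and from each list of other pathway genes the 2 with the smallest p past the threshold per comparison. One gene that this rule names is not reported here. The 34 genes and all lists were chosen with earlier results of these data known.

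Fold changes are for CtslΔTEC over Ctsl+/+ or for stimulated over unstimulated cells. CPM values are counts scaled by TMM library sizes.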

Additional observations from a re-analysis of the deposited data

Results flagged for a closer look

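The response to stimulation differed between genotypes, by edgeR's interaction term, for 6 genes of the set. The log2 interaction was -1.83 for Phgdh (adjusted p = 0.00779), -0.89 for Psph (0.0423), 0.62 for Shmt1 (0.024), -0.71 for Mthfd1l (0.0804), -2.73 for Gpt2 (0.015) and -0.67 for Got1 (0.0246).

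In unstimulated cells, 2 values stood apart from the other mice of their group by Dixon's ratio, both from Ctsl+/+ mouse 4, the only Ctsl+/+ mouse of the first date. Ddit3 was at 66.3 TPM there against 45.8 to 49.0 in the other Ctsl+/+ mice. Pycr1 was at 0.431 TPM against 0.927 to 0.965. Chance flags about 1 in 20 groups, and 61 groups were examined.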

How the results depend on the processing

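Of 2079 refits of single called genes, 1916 kept the direction and the call, 163 kept the direction and missed the threshold, and 0 reversed. In unstimulated cells 10 genes of the set were called, and 4 with an offset for transcript length, 5 with the replicate block, 1 with the Y-linked covariate, and 5 to 12 with 1 mouse left out (5 without Ctsl+/+ mouse 3). In stimulated cells 14 were called, and 5 to 15 with 1 mouse left out. In the interaction 6 were called, and 3 with the length offset and 2 to 11 with 1 mouse left out. With 1 mouse left out in the other comparisons, 26 to 29 genes were called for the Ctsl+/+ response, 22 to 26 for the CtslΔTEC response and 0 in every refit of the retained-intron share. No count for the responses or the retained-intron share left 1.5 times its main value. Where a stimulated group kept 1 mouse, that mouse was assumed to vary like the other groups. The cause of these shifts was not tested.

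Over all genes, 1943 differed in unstimulated cells, and 1051 with the replicate block and 429 with the Y-linked covariate. In stimulated cells 1898 differed, and separate refits called 1127 with the 4 stimulated libraries alone, 945 without CtslΔTEC mouse 6, 1254 without CtslΔTEC mouse 7 and 966 without Ctsl+/+ mouse 5. The interaction called 856 genes, 471 at 0.05, and 334 and 340 without CtslΔTEC mouse 6 and Ctsl+/+ mouse 5. The unstimulated split was 844 higher and 1099 lower, and 1163 and 885 with library totals alone, which also moved the median CtslΔTEC response of all genes from -0.06 to -0.21. Same-numbered mice of the 2 genotypes had correlations of -0.157 to 0.352 in their deviations, so the block rests on a shared number only. Fits with the first date as a factor, or without its 3 libraries, were chosen after seeing the data and called 15 and 16 genes in stimulated cells. The lowest depth, 8085463 counts, limits Chac1, Asns and Cth.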
